A study of Mus musculus with 4 samples.

Results

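Lyz2-positive myeloid cells of the mouse spleen were taken as the barcodes that hold lysozyme RNA and little RNA of macrophages, neutrophils, T cells or B cells. A barcode entered with at least 500 UMIs (counted RNA molecules), at least 250 genes and at most 10% mitochondrial UMIs. Barcodes were chosen by their own UMIs: each needed at least 5 UMIs of Lyz2 (lysozyme 2, an enzyme that breaks bacterial cell walls). It also needed fewer than 5 UMIs summed over the macrophage genes C1qa, C1qb, C1qc, Vcam1, Hmox1 and Spic, and fewer than 20 over S100a8 and S100a9. The T cell genes Cd3d, Cd3e and Cd3g had to be at 0 UMIs, and the B cell genes Cd79a and Ms4a1 together at 1 or less. The rule kept 20 barcodes of the aged spleen and 52 of the young spleen, 72 of 12548 filtered spleen barcodes and of 35204 filtered barcodes in the series. The rule rests on measured UMIs, so the levels of its own genes are given as a description.

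Monocytes are made in the bone marrow, circulate in blood and are also stored in the spleen, from where they can move to inflamed tissue. Classical monocytes carry Ly6C, the chemokine receptor Ccr2 and RNA of secreted proteins such as Chil3, and can become macrophages or dendritic cells. Non-classical monocytes patrol vessel walls, depend on the receptor Csf1r and the factor Nr4a1, and carry Cx3cr1, Adgre4 and Ace.

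The series has 4 libraries, from brain and spleen at 2 ages, and the study asked how immune cells differ with age. The groups used here are cells of an aged spleen and cells of a young spleen, both sorted for high CD45, a protein on blood cells, and captured with a 10x 3' kit. The labels attach a tamoxifen injection, and a later search for NK cells marked by tdTomato, to both libraries, and they also call the cells of both neuroblasts. No source used here says whether the injection applied to these mice, or gives their strain, their ages in numbers or the number of mice behind each library. With 1 library for each age there is no replicate and no test. Intervals below are exact 95% intervals that cover counting error only, and p-values are not given.

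The aged library held 40628623 UMIs and the young library 39866955. The 20 aged barcodes held 224393 UMIs, with a median of 5718.5 and a range of 740 to 54839, against 311458 UMIs in the 52 young barcodes, with a median of 3821 and a range of 507 to 43750. Sums over the aged barcodes lean on few of them. The 3 aged barcodes above 20000 UMIs held 51.5% of the aged UMIs, against 14% in the 1 young barcode above that depth. The median mitochondrial share was 3.25% in aged and 3.17% in young barcodes. Of the aged barcodes, 15 also held at least 500 UMIs in the young brain library, with a median of 2123 UMIs there and 11617 in the aged spleen, and 1 did so in the aged brain library. The same held for 87.1% of all filtered aged spleen barcodes, none of the 20 had more UMIs elsewhere, and no young barcode of the rule was shared in this way. Without shared barcodes 5 aged barcodes with 6368 UMIs in all were left, 4 of them rich in platelet genes, too few for gene values. Scrublet, a doublet caller, marked 0 of the aged and 1 of the young barcodes.

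RNA of other cells was scarce in most barcodes of the rule. Summed over 7 T cell markers, the 20 aged barcodes held 5 UMIs and the 52 young barcodes 14, and no barcode reached 3. The 8 B cell markers came to 21 and 22 UMIs in aged and young barcodes, with at most 9 and 3 in a single barcode. Of the 8 NK cell markers, aged barcodes held 4 UMIs and young barcodes 191. Of these, 1 young barcode held 46.6% and another held 74 UMIs, mostly Gzma in both. Of the 7 erythroid markers, aged barcodes held 26 UMIs and young barcodes 852, of which 98.1% lay in 1 young barcode. The 8 markers of tissue macrophages summed to 5 UMIs in aged and 25 in young barcodes, with Cd5l, Cd209b and Mertk at 0 in both. The 9 neutrophil markers summed to 114 UMIs in aged barcodes, with at most 32 in 1 barcode, and to 102 in young barcodes, with at most 17. The part that this RNA had in the results was not tested.

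The 5 marker genes given for these cells were checked in single barcodes. Chil3 (chitinase-like 3, ENSMUSG00000040809, GRCm38 chromosome 3, 106147554 to 106167564) was seen in 7 of 20 aged and 17 of 52 young barcodes. S100a4 (ENSMUSG00000001020, chromosome 3, 90603771 to 90606045), a calcium-binding protein of motile cells, was seen in 11 aged and 31 young barcodes. Ly6c2 (ENSMUSG00000022584, chromosome 15, 75108158 to 75111970), the surface antigen of classical monocytes, was seen in 7 aged and 17 young barcodes. Adgre4 (ENSMUSG00000032915, chromosome 17, 55749984 to 55853662), an adhesion receptor of non-classical monocytes, was seen in 5 aged and 17 young barcodes. Lyz2 itself (ENSMUSG00000069516) lies on chromosome 10, 117277331 to 117282321. These coordinates are of gene bodies in GENCODE M21, matched by gene identifier. Among barcodes with at least 5 UMIs of the B cell genes Cd79a and Ms4a1, which should lack these transcripts, Chil3 was seen in 2.20% of 2002 aged and 1.76% of 2499 young barcodes, at medians of 4356.5 and 3915 UMIs. The same background was 3.1% and 2.76% for S100a4, 4.50% and 5.68% for Ly6c2 and 0.300% and 0.720% for Adgre4 in aged and young spleen. None of the 4 genes other than Lyz2 was seen in 6 of the 20 aged and 12 of the 52 young barcodes. A single UMI of these genes does not make a monocyte, and the label of monocytes did not hold for all barcodes of the rule, so the whole set is called Lyz2-positive myeloid barcodes here.

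Lyz2-positive myeloid barcodes made up 0.354% of filtered barcodes of the aged spleen (20 of 5647, interval 0.216 to 0.546) and 0.754% of the young spleen (52 of 6901, interval 0.563 to 0.987). The ratio of aged to young was 0.470 (0.266 to 0.801). The share is one of cells sorted for high CD45, and it depended on the limits of the rule, which counts UMIs whatever the depth. With all limits set per 5000 UMIs of a barcode, 37 aged and 49 young barcodes entered and the ratio was 0.923, and with a mitochondrial limit of 5% it was 0.723 (16 aged and 41 young barcodes). Without barcodes that held 500 or more UMIs in another library, a setting added after the values were seen, it was 0.908. Just inside the limit, with exactly 5 Lyz2 UMIs, lay 2 aged and 1 young barcodes, and with exactly 6 lay 0 aged and 4 young ones. Just outside it, with exactly 4, lay 5 aged and 3 young barcodes, and with exactly 3 lay 12 aged and 1 young.

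Lyz2 per 10000 UMIs was lower in aged than in young barcodes of the classical and non-classical ranges, and higher in the single aged barcode of the dendritic range (27.5) than in the 3 young ones (3.37 to 9.47). Single barcodes of the rule ran from 2.13 to 176 in the aged spleen, with a median of 42.4, and from 3.37 to 545 in the young spleen, with a median of 187. Summed over barcodes the level was 31.2 in aged and 171 in young barcodes. In RNA outside cells, read from barcodes of at most 100 UMIs, it was 1.57 in the aged and 3.65 in the young library. Barcodes with Lyz2 and macrophage genes, taken without a limit on S100a8 and S100a9, gave 25.2 aged against 136 young. Those with Lyz2 and S100a8 or S100a9 gave 74.7 aged against 111 young. Since Lyz2 chose the barcodes, its level is a description, and the part of this lower level in the lower share of barcodes was not tested.

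The barcodes were sorted into ranges by the list with the most UMIs among 8 classical monocyte, 6 non-classical monocyte and 10 conventional dendritic cell genes, with at least 2 UMIs. A range is a span of marker sums, not a cell type. The classical range held 8 of 20 aged barcodes (40%, interval 19.1 to 63.9) and 27 of 52 young barcodes (51.9%, 37.6 to 66.0). The non-classical range held 3 aged (15%, 3.21 to 37.9) and 7 young barcodes (13.5%, 5.59 to 25.8), and the dendritic range 1 aged and 3 young. The other 8 aged and 15 young barcodes stayed undetermined. All these intervals overlapped between the ages. Against all filtered barcodes, the classical range made up 0.142% of aged and 0.391% of young barcodes, with a ratio of 0.362 (0.142 to 0.819), and the non-classical range gave a ratio of 0.524 (0.0874 to 2.29).

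**Figure D1:**
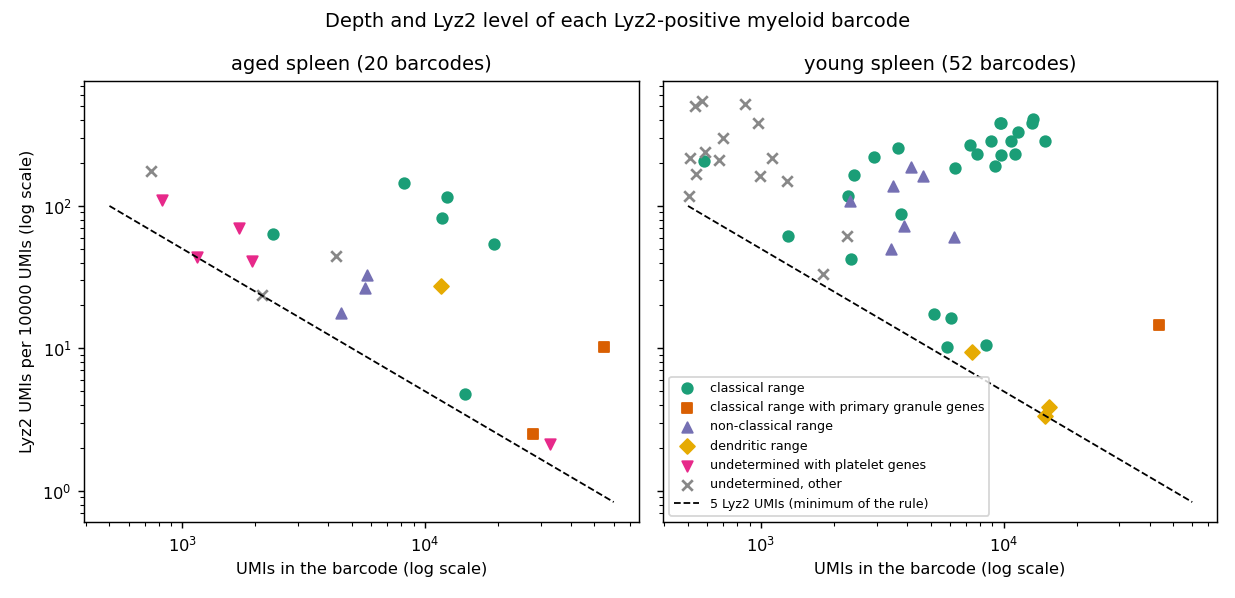
Each point is 1 Lyz2-positive myeloid barcode of the aged spleen (left, 20 barcodes) or the young spleen (right, 52 barcodes), with its UMIs on the horizontal and Lyz2 UMIs per 10000 UMIs on the vertical axis, both on log scales; shapes give the range and the 2 gene groups, and the dashed line is the minimum of 5 Lyz2 UMIs. Platelet gene barcodes appear in the aged panel alone, and most young classical-range barcodes lie above 100 Lyz2 UMIs per 10000 while 2 aged ones do.

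Some barcodes carried gene groups outside the monocyte lists, which were noticed after the values were seen. In 5 of the 20 aged barcodes (25%, interval 8.66 to 49.1) and 0 of the 52 young barcodes, where a limit of 3 counts allows up to 5.77%, there were at least 10 UMIs over the platelet genes Pf4, Ppbp, Itga2b, Itgb3 and Gp9. Pf4, a chemokine stored in platelet granules, had 5, 35, 31, 9 and 207 UMIs in these 5 aged barcodes, whose totals were 822, 1148, 1716, 1942 and 32795 UMIs. Itga2b, a subunit of the platelet fibrinogen receptor, had 5, 9, 16, 27 and 48 UMIs in the same barcodes. Ppbp, another platelet chemokine, had 17, 6, 35, 35 and 0 UMIs, so the deepest of the 5 had Pf4 and Itga2b without Ppbp. These barcodes held 5 to 12 UMIs of Lyz2 and none of Chil3, Ly6c2, Adgre4 or Csf1r, the receptor of the monocyte growth factor. Thbs1 (thrombospondin 1, an adhesive protein of platelets and monocytes) had 47 of its 86 aged UMIs in 1 of them. All 5 stayed undetermined by range. Among all filtered barcodes, 22 aged and 4 young ones passed the same limit, at a ratio of shares of 6.72 (2.28 to 26.8).

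Primary granule genes marked 2 aged barcodes (10%, interval 1.23 to 31.7) and 1 young barcode (1.92%, 0.0487 to 10.3), all in the classical range, where Ly6c2 had 36 and 61 UMIs in the aged ones and 107 in the young one. Elane, Mpo, Prtn3 and Ctsg encode neutrophil elastase, myeloperoxidase, proteinase 3 and cathepsin G, which myeloid precursors make early in their maturation. The 2 aged barcodes had 27943 and 54839 UMIs, with 14 and 91 UMIs of Elane, 41 and 43 of Mpo and 122 and 214 of Prtn3. The young barcode had 43750 UMIs, with 189 of Elane, 220 of Mpo and 277 of Prtn3. They were the deepest classical-range barcodes of both libraries. Mki67, a gene of dividing cells, had 8 and 7 UMIs in the aged ones and 11 in the young one. Among all filtered barcodes, 14 aged and 5 young barcodes passed the same limit of 10 UMIs, a ratio of 3.42 (1.16 to 12.1).

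Over all 72 barcodes, aged sums stood above young sums for platelet and cell cycle genes and below them for genes of interferon response. Fc receptor genes (4 of 6 lower) and MHC class II genes (4 of 7 lower) were also below, but without platelet and primary granule gene barcodes 1 of 6 and 0 of 7 were lower. The median log2 ratio of the MHC class II genes, -1.10, turned to 0.74 with at least 10 Lyz2 UMIs and to 0.11 without barcodes of 3 or more lymphocyte marker UMIs. UMIs were summed for each library and set per 1e6 UMIs (CPM). Of 1684 genes with at least 50 UMIs, 96 (5.7%) were 2-fold or more higher and 136 (8.08%) 2-fold or more lower in aged barcodes, and the median log2 ratio was 0.03. Without the platelet and primary granule gene barcodes, which left 13 aged and 51 young, 48 of 1096 genes (4.38%) were higher and 36 (3.28%) lower. Of the 96 genes that were higher with all barcodes, 21 were still measured in this smaller set. Of these, 20 stayed above 1 and 10 were called higher there. Of the 136 lower ones, 120 were measured, all 120 stayed below 1 and 31 were called lower. The smaller set is part of the barcodes that called these genes, so a kept direction is no separate support. Pf4, Itga2b and Ppbp, which ranked among the first 5 higher genes, also named the platelet gene barcodes.

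Among genes ranked first as higher with all barcodes, those of platelets led. Pf4 had 287 aged UMIs in 5 barcodes and 1 young UMI, a ratio of 398 (70.9 to 15788). In all other filtered barcodes Pf4 ran the other way, with 389 aged and 1187 young UMIs, a ratio of 0.332 (0.295 to 0.372). Ppbp and Itga2b stood at 5.45 and 2.03 in those other barcodes. Nrgn (neurogranin, a calmodulin-binding protein also found in platelets) had 110 aged UMIs and none in young barcodes, and was at least 50.9-fold higher against a floor of 3 counts over the library. Gng11, a G protein subunit, had 67 aged UMIs in 6 barcodes and 0 young UMIs, at least 31.0-fold higher. Cell cycle genes ranked below the first 12. Of 6 measured members 4 were 2-fold or more higher and none lower, with a median log2 ratio of 1.38, against 5.7% and 8.08% of all genes. Mki67 stood at 3.77 (2.0 to 7.53) with 38 aged and 14 young UMIs, Stmn1 (stathmin, which binds tubulin) at 2.78 (1.78 to 4.42) and Top2a at 2.50 (1.41 to 4.55). No cell cycle gene was measured without the platelet and primary granule gene barcodes. Lcn2 (lipocalin 2, a neutrophil protein that binds bacterial iron carriers) stood at 4.49 (2.57 to 8.25) with 55 aged and 17 young UMIs. Its aged UMIs lay in 5 barcodes, 18 of them in 1 barcode, and it stood at 0.868 in all other filtered barcodes.

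**Figure D2:**
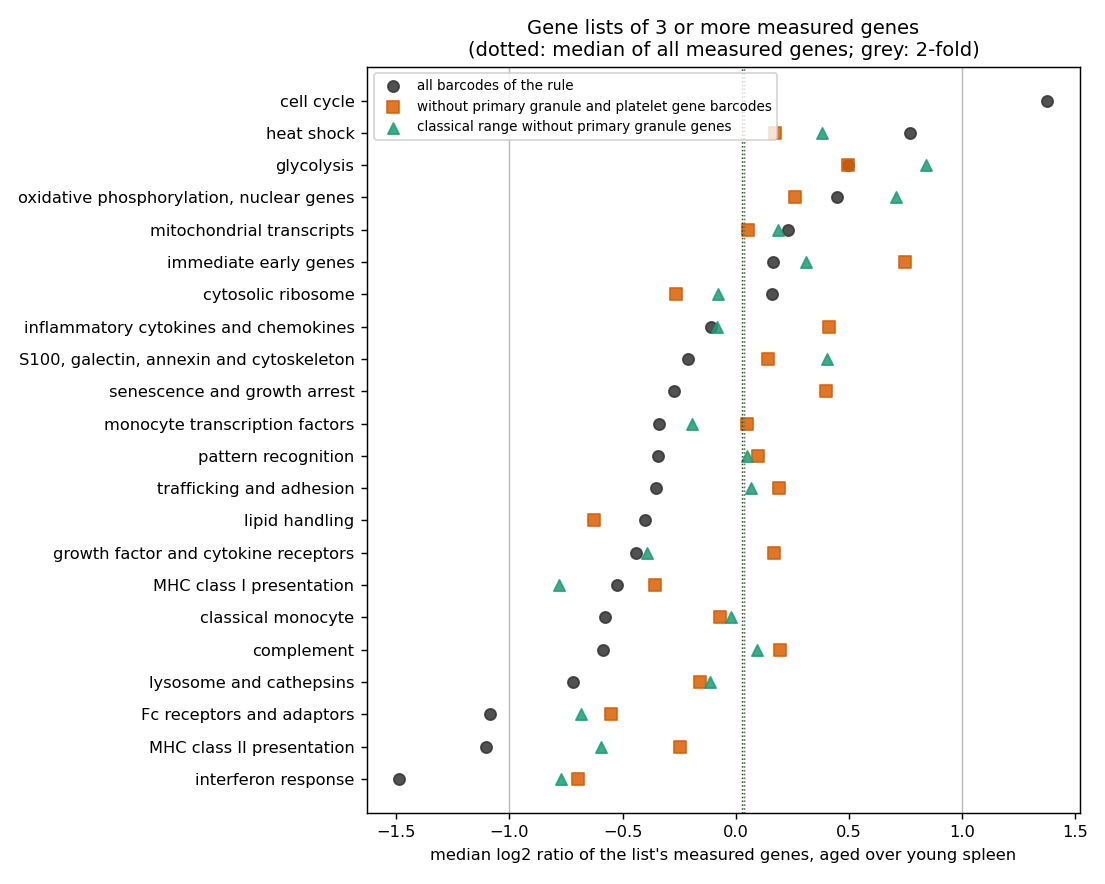
Median log2 ratio of aged over young spleen for each gene list with at least 3 measured genes, over all barcodes of the rule (circles), without platelet and primary granule gene barcodes (squares) and in the classical range without primary granule genes (triangles); dotted lines are the medians of all measured genes and grey lines mark 2-fold. Interferon response (-1.49, -0.70 and -0.77) and Fc receptor genes (-1.09, -0.55 and -0.68) lie left of the dotted lines in the 3 sets, while the cell cycle list has a point for all barcodes alone.

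The classical range without primary granule genes is the part of the set nearest to classical monocytes, with 6 aged barcodes of 2358 to 19225 UMIs (median 12034) and 26 young barcodes of 580 to 14791 UMIs (median 7552.5). Near the limit of the range, with 2 to 5 marker UMIs, lay 1 aged and 4 young barcodes, while 5 aged and 20 young barcodes had 10 or more. The aged one near the limit, with 14627 UMIs, had 4 UMIs of Ccr2, 7 of Lyz2 and 115 of Cd74, the chaperone of MHC class II. The 2 young barcodes with most of the NK cell marker UMIs also lay in this range. They had 41 and 56 UMIs of Gzma, 9 and 10 of Lyz2 and 20 and 37 of Ahnak. NK cell markers summed to 3 aged and 175 young UMIs in the range. The part of these barcodes in the lower genes below was not tested. Of 758 genes measured in this range, 37 (4.88%) were 2-fold or more higher and 48 (6.33%) lower in aged barcodes, with a median log2 ratio of 0.04. The set was formed after the values were seen, and 1 aged barcode can hold a large share of a sum, so values in single barcodes are given first.

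Of the 8 genes that define the range, 6 had intervals of the ratio that included 1, and Chil3 and Vcan were 2-fold or more higher in aged barcodes. Ly6c2 ran from 0 to 15.8 UMIs per 10000 in aged barcodes (median 9.02) and from 0 to 47.3 in young barcodes (median 1.48), and its ratio of summed CPM was 0.832 (0.613 to 1.12). Ccr2, the receptor that draws monocytes out of the marrow, stood at 1.01 (0.788 to 1.28), Fn1 (fibronectin) at 1.14 (0.907 to 1.42) and F13a1, a clotting factor subunit, at 0.934 (0.699 to 1.24). Chil3 had 0, 0, 1, 6, 161 and 167 UMIs in the 6 aged barcodes and 0 to 135 in the 26 young ones, of which 10 had none. Its ratio was 2.20 (1.90 to 2.55), and 2 aged barcodes held nearly all of the 335 aged UMIs. Both lay near the rule's limit of 20 UMIs over S100a8 and S100a9, with 16 and 18 UMIs of S100a8. A sum of 15 to 19 was found in 2 aged and 0 young barcodes of the rule. In barcodes above that limit Chil3 stood at 86.4 aged and 100 young UMIs per 10000, and the part of this limit in the ratio was not tested. Over all barcodes of the rule the Chil3 ratio was 1.19 (1.03 to 1.37), and its direction turned under 2 settings, to 0.700 with a mitochondrial limit of 5% and to 0.655 without barcodes of 3 or more lymphocyte marker UMIs. Vcan (versican, a matrix proteoglycan) had 23 aged and 27 young UMIs, a ratio of 2.34 (1.28 to 4.24). Mgst1 and Hp, a detoxifying enzyme and haptoglobin, had intervals that included 1.

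**Figure D3:**
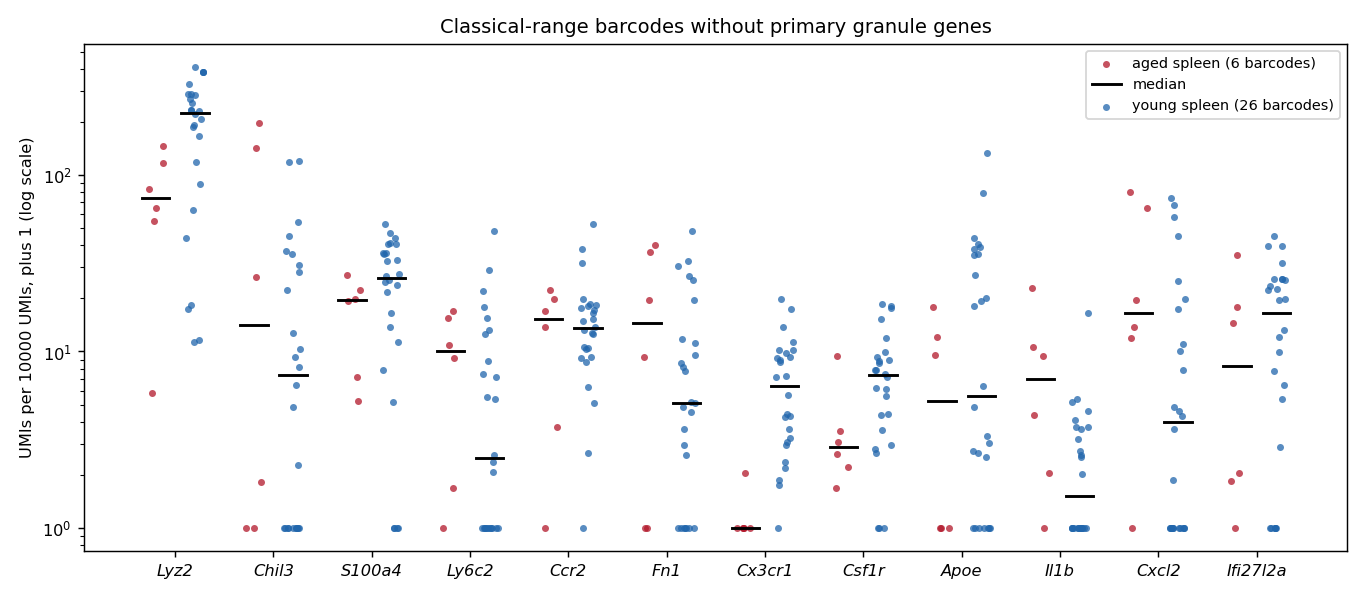
UMIs per 10000 UMIs, plus 1, on a log scale for 12 genes in each classical-range barcode without primary granule genes, with aged spleen (6 barcodes, red) left of young spleen (26 barcodes, blue) and bars at the medians. Lyz2, Cx3cr1 and Csf1r have lower medians in aged barcodes, Il1b and Cxcl2 have higher ones, and the points of the groups overlap for each gene.

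Of 7 measured inflammatory cytokine and chemokine genes, 2 were 2-fold or more higher in aged classical-range barcodes and 2 lower. Of all genes measured there, 4.88% were higher and 6.33% lower. Il1b encodes interleukin 1 beta, a fever-inducing cytokine of monocytes. It had 0, 2, 2, 4, 14 and 27 UMIs in the 6 aged barcodes, against 0 to 4 in the 26 young barcodes, 13 of which had none. Per 10000 UMIs the aged barcodes ran from 0 to 22 (median 5.94) and the young from 0 to 15.5 (median 0.511), so the ranges overlapped while the aged median lay above. The ratio of summed CPM was 6.12 (3.63 to 10.6), against 1.21 in all other filtered barcodes. Over all barcodes of the rule it was 5.50 (3.61 to 8.65), and it lay between 3.48 and 10.2 under the 16 other settings that gave a value. Il1b UMIs were seen there in 11 of 20 aged and 17 of 52 young barcodes. The median depths were unlike, at 5718.5 and 3821 UMIs, and a deeper barcode shows a gene more often. Free RNA held 0.672 Il1b UMIs per 10000 in the aged and 0.435 in the young library.

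Chemokines differed in direction. Cxcl2, which attracts neutrophils, had 0, 3, 21, 27, 76 and 97 UMIs in aged classical-range barcodes and 0 to 75 in young ones, of which 11 had none. Its ratio was 2.39 (1.99 to 2.88), beside 1.63 in all other filtered barcodes. Cxcl1, a related chemokine outside that list, had 31 aged and 25 young UMIs, a ratio of 3.41 (1.95 to 6.02), with UMIs in 4 barcodes of each age. Ccl4, which attracts lymphocytes, stood at 0.305 (0.127 to 0.634) and Ptgs2, the inducible cyclooxygenase, at 0.375 (0.130 to 0.882). Ccl6 stood at 0.658 (0.466 to 0.912). Saa3, an acute-phase protein, ranked first by ratio, but all 54 aged UMIs lay in 1 barcode. Tnfaip3, an inhibitor of NF-kB signalling, stood at 2.57 (1.77 to 3.73), beside 1.91 in all other filtered barcodes.

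Of 20 immediate early genes, a group switched on fast by stimuli and also by tissue handling, 1 was 2-fold or more higher and none lower. These counts are too few to set apart from the 4.88% and 6.33% of all genes. Nr4a2, an orphan nuclear receptor, stood at 3.74 (2.16 to 6.53) and Nfkbia, the inhibitor of NF-kB, at 1.76 (1.44 to 2.15). Nr4a1 stood at 1.70 (1.3 to 2.23), Fos at 1.31 (1.11 to 1.55) and Jun at 1.15 (0.914 to 1.43). Atf3, at 0.638 (0.431 to 0.922), and Jund, at 0.544 (0.328 to 0.866), lay on the other side. The median log2 ratio of the list was 0.31, beside 0.04 for all measured genes. No source used here gives the handling time of each spleen, so handling and age cannot be told apart.

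The receptor genes Cx3cr1 and Csf1r were 2-fold or more lower in aged classical-range barcodes, while of 6 measured growth factor and cytokine receptors Csf1r alone passed 2-fold, beside 6.33% of all genes lower. Cx3cr1, the receptor for fractalkine, had 2 UMIs in 1 of 6 aged barcodes and 100 UMIs in 25 of 26 young barcodes, a ratio of 0.0549 (0.00656 to 0.204). Per 10000 UMIs it ran from 0 to 1.04 in aged and from 0 to 18.8 in young barcodes (median 5.39), so all aged barcodes lay at or near the low end of the young range. It was also lower in all other filtered barcodes, at 0.343. Csf1r was seen in all 6 aged barcodes, with 1 to 4 UMIs each, and ran from 0.684 to 8.48 per 10000 (median 1.86), against 0 to 17.5 in young barcodes (median 6.32). Its ratio was 0.322 (0.166 to 0.573), beside 0.692 in all other filtered barcodes. The young barcodes of this range also held more RNA of non-classical markers, 48 UMIs (255 CPM) against 9 in aged ones (131 CPM). Adgre4 and Ace were each seen in 8 of 26 young and 0 of 6 aged barcodes. The young barcode with the highest Cx3cr1 level had 12 UMIs of dendritic cell markers and 85 of Cd74. The part of this make-up in the lower Cx3cr1 and Csf1r was not tested. Among monocyte transcription factors 0 of 8 measured members were higher and 1 was lower, too few to set apart from the 4.88% and 6.33% of all genes. The lower one was Pou2f2 at 0.401 (0.211 to 0.705). Spi1 (PU.1), the master regulator of myeloid cells, stood at 0.838 (0.533 to 1.28).

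Other surface and immune genes at the top of the lower ranking were Lst1, Cybb, Clec4a1, Ptprc, Ms4a4c and Ms4a6b. Lst1, a small membrane protein of leukocytes, ran from 0.684 to 4.24 UMIs per 10000 in aged (median 2.26) and from 0 to 22.5 in young barcodes (median 8.36), a ratio of 0.232 (0.124 to 0.400). Cybb, the catalytic subunit of the phagocyte oxidase that makes superoxide, stood at 0.379 (0.274 to 0.513) with 48 aged and 348 young UMIs, and at 1.12 in all other filtered barcodes. Clec4a1, a lectin receptor, stood at 0.225 (0.0706 to 0.555). Ptprc encodes CD45 itself, the protein used for the sort, and stood at 0.444 (0.324 to 0.596), beside 0.701 in all other filtered barcodes. Among adhesion genes Itgal, a chain of the integrin LFA-1, stood at 0.283 (0.110 to 0.615).

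Apoe, which encodes the lipid carrier apolipoprotein E, was lower in sum but not at the median. It ran from 0 to 17.0 UMIs per 10000 in aged classical-range barcodes (median 4.27) and from 0 to 131 in young ones (median 4.62). The ratio of sums was 0.219 (0.138 to 0.332) with 24 aged and 301 young UMIs, so the gap lay in young barcodes with high Apoe. In all other filtered barcodes the ratio ran the other way, at 1.37. Apoe was seen in 50% of aged and 78.8% of young barcodes of the rule, and also in 47.7% of aged and 30.4% of young barcodes with B cell genes, so the aged share was near that background. Barcodes with Lyz2 and macrophage genes, taken without a limit on S100a8 and S100a9, gave a ratio of 0.344 (0.288 to 0.409).

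**Figure D4:**
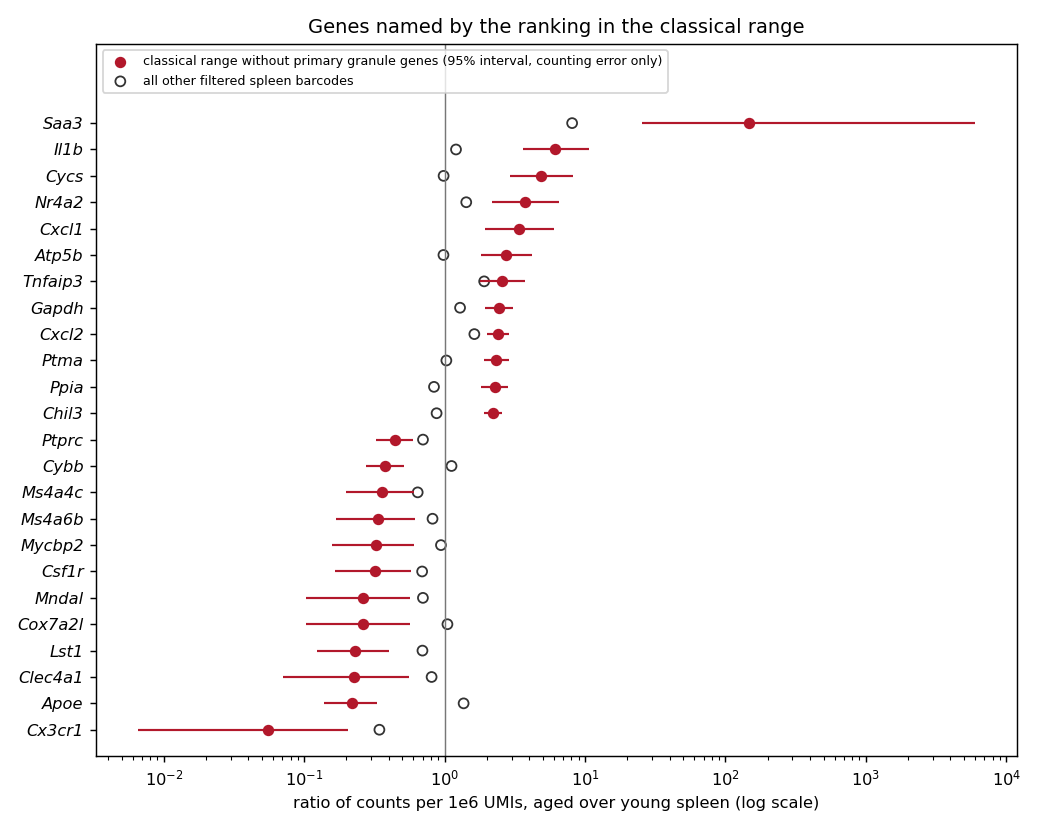
Ratio of CPM in aged over young spleen, on a log scale, for the 24 genes ranked first in classical-range barcodes without primary granule genes (filled points, with 95% intervals of counting error), and for the same genes in all other filtered spleen barcodes (open points, absent for Cxcl1). Il1b stands at 6.12 against 1.21 in the other barcodes, and Apoe at 0.219 against 1.37.

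Most measured genes that present antigen and sense antibody had ratios below 1, by less than 2-fold except for H2-T23. Of 5 measured Fc receptor and adaptor genes none passed 2-fold, with a median log2 ratio of -0.68. Tyrobp, a signalling adaptor, stood at 0.561 (0.454 to 0.689) and Fcer1g, the shared Fc receptor chain, at 0.623 (0.492 to 0.782). Of 6 measured MHC class II genes none passed 2-fold either, with a median of -0.59. Cd74 stood at 0.607 (0.494 to 0.741) and H2-Eb1 at 0.522 (0.353 to 0.753). Cd74 was uneven, with at least 20 UMIs in 1 of 6 aged and 10 of 26 young barcodes, and that aged barcode, the one near the limit of the range, held 95.8% of the aged Cd74 UMIs. Of 5 measured MHC class I genes 1 was lower, H2-T23 at 0.426 (0.186 to 0.866), beside 6.33% of all genes. B2m, the light chain of class I, stood at 0.581 (0.456 to 0.734). Psmb8, a subunit of the immunoproteasome, stood at 1.80 (1.19 to 2.70).

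Interferon response genes were lower in aged barcodes for 2 of 7 members in the classical range, beside 6.33% of all genes. The median log2 ratio of the list was -0.77. Over all barcodes of the rule 5 of 8 members were lower and none higher, with a median of -1.49, beside 8.08% of all genes lower. Without platelet and primary granule gene barcodes 3 of 8 were lower, beside 3.28% of all genes. Ms4a4c, a membrane protein induced by interferon, stood at 0.360 (0.20 to 0.609) in the classical range and 0.643 in all other filtered barcodes. Ifi27l2a, another interferon-induced gene, had 60 aged UMIs, 70% of them in 1 barcode, and 312 young UMIs. Its ratio was 0.528 (0.394 to 0.698), and 0.602 in all other filtered barcodes. Ifi204, a DNA sensor, stood at 0.366 (0.128 to 0.861) and Slfn5 at 0.586 (0.337 to 0.970). Ifitm3 and Bst2, 2 antiviral membrane proteins, stood at 0.979 (0.844 to 1.13) and 1.04 (0.557 to 1.85).

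The S100, galectin, annexin and cytoskeleton list split in the classical range. Of 15 members 2 were 2-fold or more higher and none lower, beside 4.88% and 6.33% of all genes. S100a4 ran from 4.24 to 26.3 UMIs per 10000 in aged (median 18.5) and from 0 to 51.7 in young barcodes (median 25.1), a ratio of 0.609 (0.496 to 0.744). S100a6 stood at 0.746 (0.614 to 0.901) and Ahnak, a giant scaffold protein, at 0.655 (0.510 to 0.834). Over all barcodes of the rule the same 3 genes stood at 0.330 (0.273 to 0.395), 0.360 (0.299 to 0.432) and 0.310 (0.244 to 0.390). Lgals3 (galectin 3, a sugar-binding protein of macrophages) ran from 4.24 to 40.7 in aged (median 19.6) and from 0 to 25.6 in young barcodes (median 9.08), a ratio of 2.07 (1.68 to 2.55). Crip1, a small LIM protein, ran from 0 to 73.8 in aged (median 50.9) and from 3.28 to 50.4 in young barcodes (median 19.2). Its ratio was 2.03 (1.76 to 2.33). Of its 358 aged UMIs, 108 lay in the aged barcode near the limit of the range. Another 122 lay in an aged barcode with 85 classical monocyte and 15 dendritic cell marker UMIs.

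Among lysosomal genes 2 of 16 were higher and none lower in the classical range, beside 4.88% and 6.33% of all genes. Ctsz and Ctsd, which encode cathepsins Z and D, stood at 2.51 (1.75 to 3.58) and 2.55 (1.44 to 4.51). Ctss, the cathepsin that trims the class II chaperone, stood at 0.577 (0.436 to 0.753) and Psap, the precursor of lipid-binding saposins, at 0.667 (0.556 to 0.797). Of 7 glycolytic genes 2 were higher, Gapdh at 2.43 (1.94 to 3.06) and Ldha at 2.13 (1.19 to 3.74), and the median log2 ratio was 0.84. Nuclear genes of oxidative phosphorylation had 4 of 37 members higher and none lower, with a median of 0.71. Among them Atp5b, the catalytic subunit of ATP synthase, stood at 2.75 (1.80 to 4.19). Cycs, which encodes cytochrome c and is outside that list, had 46 aged and 26 young UMIs, a ratio of 4.86 (2.94 to 8.19), and 1 aged barcode held 52.2% of the aged UMIs. In all other filtered barcodes Cycs stood at 0.983 and Atp5b at 0.981.

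The non-classical range held 3 aged barcodes of 4510 to 5787 UMIs and 7 young barcodes of 2322 to 6241 UMIs. Adgre4 had 2, 12 and 6 UMIs in the aged barcodes and 1 to 3 in the young ones, and Ace, the angiotensin-converting enzyme, had 5, 7 and 6 UMIs in aged and 0 to 11 in young barcodes. These genes define the range. Ly6c2, Fn1 and Vcan were at 0 UMIs in all 10 barcodes. Lyz2 ran from 17.7 to 32.8 UMIs per 10000 in aged and from 49.7 to 188 in young barcodes, with no overlap. Il1b was seen in all 3 aged barcodes, with 2, 6 and 23 UMIs, and in 2 of 7 young barcodes, with at most 2. Cx3cr1 was seen in 2 of 3 aged barcodes, with 8 and 4 UMIs, and in 6 of 7 young barcodes, with 1 to 5. Csf1r was seen in all 3 aged and 6 of 7 young barcodes, at medians of 7.08 and 14.3 per 10000.

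**Figure D5:**
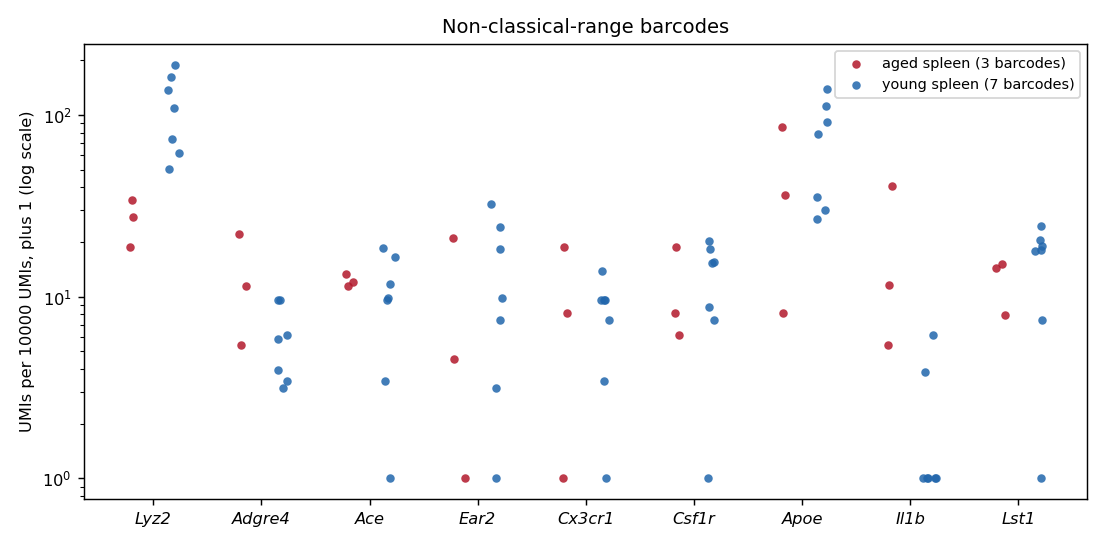
UMIs per 10000 UMIs, plus 1, on a log scale for 9 genes in each non-classical-range barcode, with aged spleen (3 barcodes, red) left of young spleen (7 barcodes, blue). Lyz2 points do not overlap, with aged barcodes at 17.7 to 32.8 and young ones at 49.7 to 188, while those of the other 8 genes overlap.

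Stress and immediate early genes led the higher ranking in the non-classical range, where 125 genes were measured, 8 (6.4%) were higher and 9 (7.2%) lower, and the median log2 ratio was -0.37. Of 7 measured immediate early genes 3 were higher and none lower, with a median of 0.87. Fos stood at 2.90 (1.95 to 4.36) with 69 aged and 42 young UMIs, Zfp36, which degrades cytokine transcripts, at 2.47 (1.62 to 3.80) and Jun at 2.35 (1.57 to 3.54). In each of the 3 genes 1 aged barcode held 48.2% to 58.3% of the aged UMIs. Klf4, a factor of monocyte differentiation, stood at 2.96 (1.82 to 4.91). The heat shock genes Hspa1b and Hspa1a came with 53 and 30 UMIs from 1 aged barcode and none from the other 2 or from the 7 young ones. Lower genes were led by Tmsb4x, which binds actin, at 0.461 (0.370 to 0.571), a direction also seen in all other filtered barcodes, at 0.576. Apoe stood at 0.651 (0.487 to 0.863) with 69 aged and 187 young UMIs.

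The dendritic range and the undetermined barcodes were too few or too shallow for a comparison of genes. The aged dendritic barcode, of 11617 UMIs, had 257 UMIs of Cd74, 139 of the class II gene H2-Aa and 5 of Flt3, a growth factor receptor of dendritic cells. The 3 young ones had 140, 189 and 290 UMIs of Cd74 and 1, 1 and 8 of Flt3. Xcr1, the receptor of cross-presenting dendritic cells, had 13 UMIs in 1 young barcode and 0 in the aged one, while Cd209a, of another dendritic subset, had 10 and 13 UMIs in the other 2 young ones. Of the undetermined barcodes without platelet genes, the 3 aged ones had 740, 2125 and 4279 UMIs, and the 15 young ones had a median of 696 UMIs. These young barcodes held 6 to 45 UMIs of Lyz2, a median of 216 per 10000 UMIs, and 14 of the 15 had Apoe, while Chil3 and Ly6c2 were at 0 in all of them.

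Other Lyz2-positive barcodes of the same spleens served to show where the set differs. Barcodes with Lyz2 and macrophage genes numbered 11 aged and 37 young. Those with Lyz2 and at least 20 UMIs of S100a8 and S100a9, after the macrophage limit, numbered 25 aged and 28 young. Neither group had a limit on T or B cell genes, and the macrophage group had none on S100a8 and S100a9. S100a8 in the macrophage group stood at 414 UMIs per 10000 in aged and 169 in young barcodes. Gzma had 1 aged and 139 young UMIs there. The part of this RNA in the ratios below was not tested. Il1b, at 5.50 in the set, was at 0 UMIs in aged and 10 UMIs in young barcodes with macrophage genes, and stood at 0.186 (0.124 to 0.271) in barcodes with S100a8 and S100a9. Cxcl2 stood at 1.52 (1.28 to 1.80) in the set, at 9.0 (6.90 to 11.9) with macrophage genes and at 0.588 (0.492 to 0.702) with S100a8 and S100a9. S100a4 stood at 0.330 in the set, at 0.469 (0.313 to 0.688) with macrophage genes and at 47.4 (12.8 to 396) with S100a8 and S100a9, where 2 young UMIs were counted. Cx3cr1 stood at 0.220 (0.128 to 0.358) in the set and at 0.50 (0.194 to 1.15) with macrophage genes. The differences between these ratios were not tested, since each rests on 1 library for each age.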

How the data were processed

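The deposited matrices of 4 mouse libraries hold raw counts of UMIs for each gene in each barcode, with empty barcodes included. Per the submitters' processing notes they came from Cell Ranger 1.3.1 with the human build GRCh38, whereas the file headers give software version 3.1.0, and the deposited files list 31053 mouse genes and 6794880 barcodes. The software behind the counts is therefore uncertain, with the treatment of multi-mapped reads not given in the sources used here. Values of Ly6c2, Hspa1a, Hspa1b and haemoglobin genes, which have close copies, are uncertain. The authors' deposited tables of cluster genes were not used.

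UMIs were summed over the barcodes of the rule in each library, set per 1e6 UMIs (CPM) and compared as aged over young, with exact conditional binomial intervals; shares have exact Clopper-Pearson intervals. Genes needed 50 UMIs over both libraries, a gene at 0 was set to 3 counts, and called means 2-fold or more. With 1 library for each age no test was possible. PCR duplicates were collapsed by the authors' UMIs, and intervals cover counting error only. The first 12 genes each way by the interval bound nearest to 1 were named, without immunoglobulin, T cell receptor, haemoglobin, ribosomal, mitochondrial, sex and rule genes, unnamed gene models and RNA of other cells; also named were the 5 markers, up to 4 members of each gene list by that bound and up to 2 by UMIs, and the first 6 genes each way of each range. Single genes beyond this rule were chosen after their values were seen. The barcodes, gene lists and rules were chosen with earlier results of these data known. Gene ratios were tested on simulated data. Alternatives changed the filters, depth, scaling and gene minimum, thinned barcodes to 1000 UMIs, and left out doublets (Scrublet in scanpy 1.11.5; numpy 2.4.6, scipy 1.17.1, pandas 2.3.3) or, after the values were seen, platelet, primary granule and shared barcodes.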

Additional observations from a re-analysis of the deposited data

How the results depend on the processing

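No paired analysis was possible because each age has 1 library and the labels give no replicate numbers that join them. The ratio of shares of Lyz2-positive barcodes, aged over young, was below 1 under all settings run, at 0.312 to 0.923. No intervals are given for the other settings, so values near 1 do not set the ages apart. The ratio of 0.470 moved past its interval to 0.923 with the limits per 5000 UMIs, and to 0.908 without barcodes that held 500 or more UMIs in another library, where 0 of the 5 aged barcodes left lay in the classical range. Counts of genes 2-fold or more higher and lower, 96 and 136, were 63 and 86 with at least 10 Lyz2 UMIs, 54 and 84 without barcodes of 3 or more lymphocyte marker UMIs, 5 and 10 in thinned barcodes, 345 and 415 with at least 20 UMIs per gene, 13 and 25 with at least 200, 2468 and 1934 with no minimum, 8 and 9 in the non-classical range, 37 and 48 in the classical range without primary granule genes, and 48 and 36 without platelet and primary granule gene barcodes. With limits per 5000 UMIs 75 were lower, without primary granule gene barcodes 84 were lower, and with the mean CPM of single barcodes 161 were higher. With fewer barcodes, fewer UMIs per barcode or a higher minimum fewer genes are measured, which lowers such counts by construction; other causes were not tested. The median log2 ratio of MHC class II genes, -1.10, turned to 0.74 with at least 10 Lyz2 UMIs and to 0.11 without barcodes of lymphocyte marker UMIs, and the cause was not tested. None of the 24 ranked genes crossed 1 under any setting that measured it, which for Cdk6 were 7 settings. The settings reuse many of the barcodes that ranked these genes, so a kept direction is no separate support. Il1b stayed between 3.48 and 10.2, Cx3cr1 between 0.0549 and 0.422 and Ifi27l2a between 0.227 and 0.528. Of 399 gene values under these settings 318 stayed within the counting interval, as did 318 of 351 list medians within 1.5-fold. The precision is limited by 20 aged barcodes and, in the classical range, 6.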

Other observations

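Cd9, a membrane protein of platelets and other cells, had 103 aged UMIs and 36 young UMIs in barcodes of the rule, a ratio of 3.97 (2.69 to 5.98), against 0.688 in all other filtered barcodes. Of the 103 aged UMIs, 91 lay in undetermined barcodes, where young barcodes had 0. Nlrp3, the sensor of an inflammasome that matures interleukin 1 beta, had 37 aged and 14 young UMIs over all barcodes of the rule, a ratio of 3.67 (1.94 to 7.35), and stood at 3.45 in all other filtered barcodes. Thbs1 stood at 3.62 (2.40 to 5.58) in the set and 5.28 (4.04 to 6.99) in all other filtered barcodes. Most of its aged UMIs in the set lay in the 5 platelet gene barcodes, with 4, 47, 13, 11 and 0 UMIs. In the classical range without primary granule genes it had 11 UMIs in 6 aged and 33 UMIs in 26 young barcodes. Cd9, Nlrp3 and Thbs1 were chosen after their values were seen.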
